A study of Mus musculus with 27 samples.

Results

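A set of 54 Affymetrix probe sets was low in medulloblastoma allografts 16 h and 48 h after dosing with NVP-LDE225 and back near the vehicle level in allografts that had become resistant to it. The set was chosen by values measured in the same arrays, out of 45037 probe sets that are not controls. Selection was on log2(signal + 4), where the signal is the linear MAS5 intensity of the array. A member had a mean signal of at least 100 in the 8 vehicle tumours. Its mean was lower by at least 1.5 (2.83-fold) in treated than in vehicle tumours at 16 h and again at 48 h. The mean of the 5 resistant tumours lay within 0.5 (1.41-fold) of the mean of the 8 vehicle tumours. These 3 contrasts are therefore given as descriptions, with no test.

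All tumours were Ptch+/-p53-/- medulloblastoma of the mouse, grown under the skin of Harlan nu/nu (nude) mice from cells dissociated directly from tumours, and each array held the RNA of the tumour of 1 mouse. Vehicle tumours were harvested at 4 h (Veh-4h, 3 tumours), 16 h (Veh-16h, 3 tumours) and 48 h (Veh-48h, 2 tumours). Sensitive tumours dosed once daily with NVP-LDE225 (20 mg/kg/day) were harvested at 4 h (LDE-4h, 3 tumours), 16 h (LDE-16h, 3 tumours) and 48 h (LDE-48h, 2 tumours). Resistant tumours came from mice on continuous NVP-LDE225 in 2 doses daily, totalling 20 mg/kg/day (LDE RES 20, 2 tumours) or 160 mg/kg/day (LDE RES 160, 3 tumours), and were harvested on day 26. No RNA array of a vehicle tumour at day 26 was analysed here, so resistance cannot be told apart from time on study or from the schedule. The graft lies outside the brain, in a host without a normal T cell compartment, and bulk RNA also holds RNA of host cells. In bulk tumours, fewer cells of a type and less RNA per cell cannot be told apart.

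NVP-LDE225 is an antagonist of Smoothened, the membrane protein that passes on the Hedgehog signal. Patched, the product of Ptch, holds Smoothened inactive until a Hedgehog ligand binds it, and active Smoothened leads to transcription by Gli factors. Loss of Patched function keeps this signal on in the precursors of cerebellar granule neurons, which proliferate in response to it and can give rise to medulloblastoma. p53, the product of the p53 gene, halts the cell cycle or triggers cell death after DNA damage. The probe sets were not matched to genes here, so members are described by their values and, for 4 of them, by probe set ID, without a gene or a function.

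Of the 13794 probe sets bright enough in vehicle tumours, 213 fell by 1.5 or more at 16 h, 329 at 48 h and 90 at both times. These 90 divided into the 54 members, 30 that were still low in resistant tumours (mean difference below -0.5) and 6 that lay above the vehicle level. All 54 members passed the filter on low values used for the tests. The members nearest the thresholds had vehicle signals of 122.4 and 127.7, while the brightest probe sets left out for their level stood at 99.475 and 99.462. At 16 h the members nearest the threshold had changes of -1.51 and -1.514, and the nearest left out had -1.475 and -1.473. At 48 h the nearest inside had -1.506 and -1.506, and the nearest outside had -1.499 and -1.495. For resistant tumours, the lowest members had -0.438 and -0.40 against -0.503 and -0.512 just outside, and the highest had 0.323 and 0.301 against 0.526 and 0.566 just outside.

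Members spanned a wide range of levels. Their mean vehicle signal ran from 122.4 to 2035, with a median of 319, close to the median of 317 over all probe sets bright in vehicle tumours. At 16 h the log2 difference from vehicle ran from -6.52 to -1.51 with a median of -1.84, beside 0.09 over the 32842 probe sets tested. At 48 h it ran from -4.82 to -1.51 with a median of -2.19, beside 0.09 over all probe sets tested. Over the probe sets bright in vehicle tumours, from which members came, the medians were 0.03 at 16 h and -0.17 at 48 h. The fall was larger at 48 h than at 16 h in 35 members and smaller in 19, and 11 members fell by 3 or more at 48 h. The mean LDE-48h signal of members ran from 2.55 to 379 with a median of 55.3, and 7 members were under a signal of 20 there. The difference between resistant and vehicle tumours ran from -0.44 to 0.32 with a median of -0.15, and it was below 0 in 40 members and above 0 in 14. After each array was centred on its median, the median over the same members was -0.36, and over all probe sets tested it moved from 0.07 to -0.14.

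**Figure D1:**
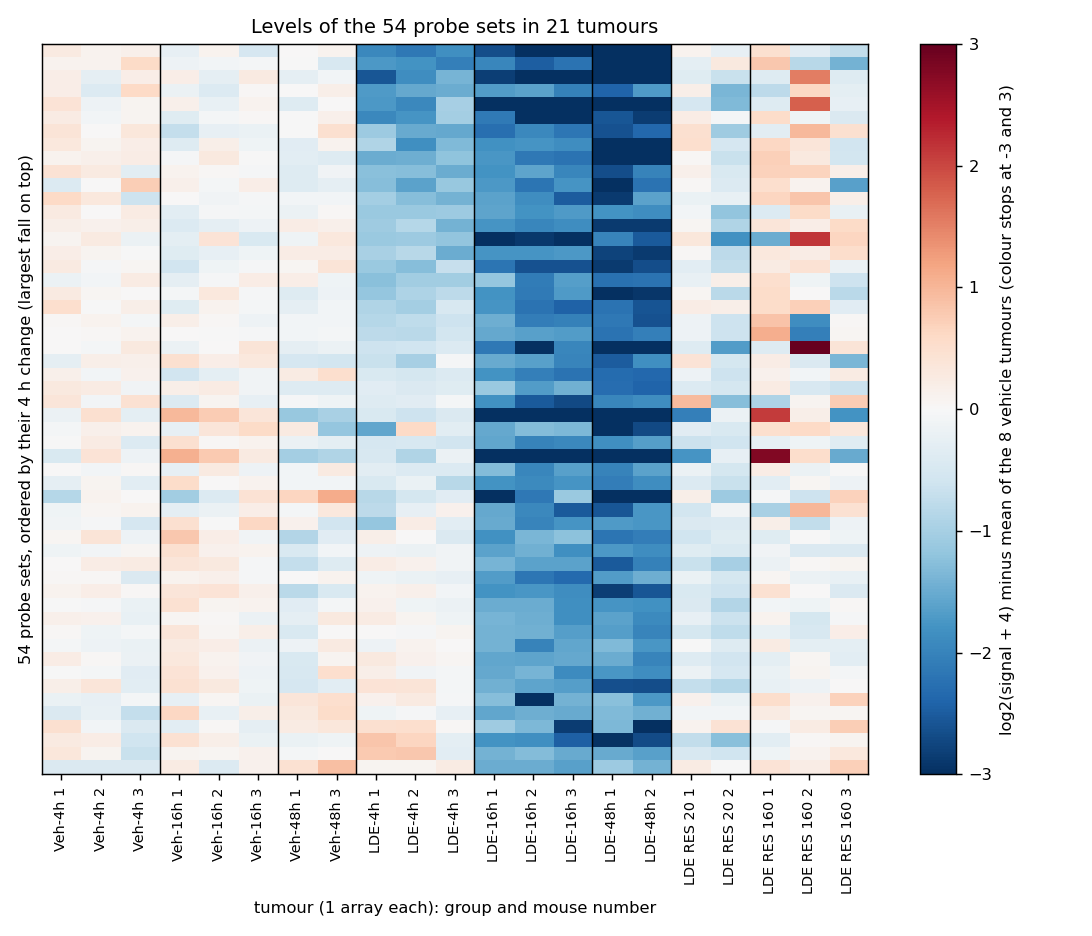
Log2(signal + 4) of the 54 probe sets (lines of the grid, ordered by their change at 4 h) in 21 tumours (columns, grouped by treatment), minus the mean of the 8 vehicle tumours; colour stops at -3 and 3. LDE-16h and LDE-48h columns are blue for all 54, LDE-4h columns are blue mainly in the upper part, and the 5 resistant columns hold blue and red cells.

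The probe set with the deepest fall at 16 h was also the brightest member. Its signal was 1585.4, 2538.2 and 1483.9 in Veh-4h tumours, 3553.7, 3064.0 and 2325.9 in Veh-16h tumours and 812.6 and 916.5 in Veh-48h tumours. It was 27.8, 34.1 and 23.2 in LDE-16h tumours and 53.5 and 32.7 in LDE-48h tumours, far below every vehicle tumour at either time. The LDE-4h tumours stood at 1315.6, 1180.7 and 1343.0, close to the Veh-4h tumours but below all 3. Its signal was 434.4 and 1597.7 in LDE RES 20 tumours and 7701.1, 2024.1 and 515.7 in LDE RES 160 tumours. The first LDE RES 160 tumour lay above all 8 vehicle tumours, while 2 resistant tumours lay below all 8. A mean difference of -0.35 from vehicle thus covered tumours on both sides of the vehicle range.

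A member with a like profile had the second deepest fall at 16 h, -5.37, and the largest spread among resistant tumours, an SD of 1.84. Its vehicle signal was 623 ± 317 (SD, n = 8) and its resistant tumours stood at 159.9, 469.4, 3845.5, 794.1 and 192.3, in the order given above. The same tumour was again the highest and the first LDE RES 20 tumour again the lowest. Whether this member and the brightest one measure the same transcript was not tested. At the other end, the member with the smallest spread had an SD of 0.13. It had a vehicle signal of 128 ± 42.6 (SD, n = 8), LDE-16h signals of 38.4, 41.6 and 39.9, and LDE-48h signals of 46.1 and 42.1. Its resistant tumours stood at 115.5, 114.6, 144.6, 127.0 and 127.5, all close to each other and inside the vehicle range of 72.1 to 188.3.

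The return to the vehicle level was one of group means, and single resistant tumours often lay away from it. Only 3 of the 54 members had all 5 resistant tumours within 0.5 of the vehicle mean, while 29 had all 8 vehicle tumours within 0.5. In 22 members at least 1 resistant tumour lay above 0.5 and another below -0.5. At least 1 resistant tumour lay below -1 in 16 members and above 1 in 7 members. These counts are not given over all bright probe sets, so whether they are particular to members cannot be read from them. The 8 vehicle tumours, unlike the resistant ones, also make up the mean from which they were measured. The SD over the 5 resistant tumours had a median of 0.47 over members, against 0.26 over the 13794 bright probe sets and 0.77 over the 30 that stayed low. The SD over the 8 vehicle tumours had a median of 0.28 over members, against 0.22 over the bright probe sets. In 53 members every resistant tumour lay above every LDE-48h tumour. The same held for 18.7% of all probe sets tested, and the rule for members itself used both groups.

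The resistant tumours differed from each other in where the set stood. Over the 54 members, the median log2 difference from the vehicle mean was -0.19 and -0.59 in the LDE RES 20 tumours and 0.20, 0.06 and -0.10 in the LDE RES 160 tumours. Single vehicle tumours had medians between -0.15 and 0.09. LDE-4h tumours had -0.65, -0.53 and -0.41, LDE-16h tumours had -1.67, -1.93 and -1.87, and LDE-48h tumours had -2.35 and -2.21. The actin 3′ to 5′ ratio of the control probe sets, a measure of RNA integrity and labelling, ran from 1.25 to 1.40 in the 9 resistant and 48 h tumours and from 1.53 to 1.91 in the 12 tumours at 4 h and 16 h, and its part in the values of resistant against all vehicle tumours was not tested. The second LDE RES 20 tumour was the farthest from vehicle among the resistant tumours and lay in the range of the LDE-4h tumours.

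**Figure D2:**
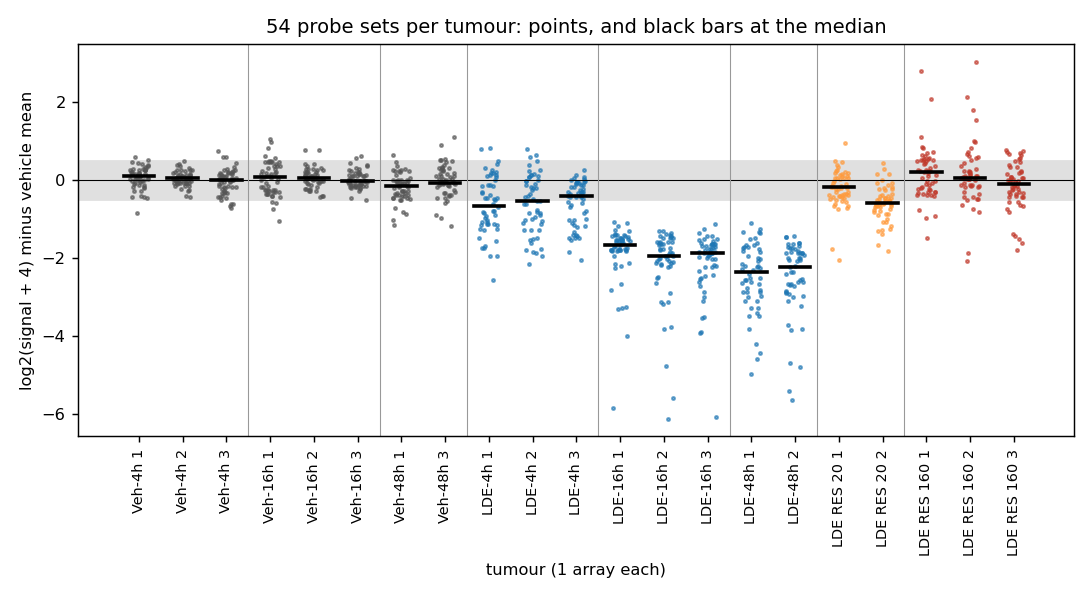
Log2(signal + 4) minus the vehicle mean for the 54 probe sets (points) in each of 21 tumours, with black bars at the median and a grey band from -0.5 to 0.5. The medians of the 5 resistant tumours run from -0.59 to 0.20, above those of all 5 LDE-16h and LDE-48h tumours, which run from -2.35 to -1.67.

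The second LDE RES 20 tumour had 21 members within 0.5 of the vehicle mean, 33 below and none above. In the first LDE RES 20 tumour 43 members were within 0.5, 10 below and 1 above. The LDE RES 160 tumours had 34, 35 and 35 members within 0.5, with 4, 6 and 11 below and 16, 13 and 8 above. The second LDE RES 20 tumour was the lowest of the 5 resistant tumours in 36 members, and an LDE RES 160 tumour was the highest in 52 members (22, 17 and 13 in the first to the third). Members above 1 were found only in the first LDE RES 160 tumour, with 3, and in the second, with 4. Members below -1 numbered 2 and 9 in the LDE RES 20 tumours and 1, 2 and 5 in the LDE RES 160 tumours. Few members were nearer to the LDE-48h mean than to the vehicle mean: 0 and 4 in the LDE RES 20 tumours and 1, 2 and 2 in the LDE RES 160 tumours. The share of all 13794 bright probe sets within 0.5 of the vehicle mean was 85.9% and 76.4% in the LDE RES 20 tumours and 84.8%, 76.6% and 71.9% in the LDE RES 160 tumours.

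Each resistant tumour was also left out of the choice in turn, so that its values could be read in a tumour that the rule had not used. The first LDE RES 20 tumour had a median of -0.19 over the 54 probe sets chosen without it, and 77.8% lay within 0.5 of the vehicle mean. The second had -0.61 over 57 probe sets, with 36.8% within 0.5. The LDE RES 160 tumours had 0.05 over 49 probe sets, 0.05 over 55 and -0.16 over 56, with 67.3%, 61.8% and 58.9% within 0.5. The other drug-repressed probe sets, chosen without the same tumour, were within 0.5 in 25%, 9.09%, 48.8%, 20% and 23.5%, in the same order. Over all probe sets tested the share was 70.6%, 62.8%, 71.8%, 64.7% and 61.5%. These include dim probe sets, which the rule leaves out. Over the 13794 probe sets bright in vehicle tumours the share was 85.9%, 76.4%, 84.8%, 76.6% and 71.9%. The share for the chosen probe sets was below that of the bright ones in all 5 tumours. It was above that of the other drug-repressed probe sets in all 5 tumours. The remaining resistant tumours sorted these sets against the same vehicle mean from which the left-out tumour was measured, so this order is not independent of the choice. The share for the chosen probe sets was above that of all tested probe sets in the first LDE RES 20 tumour, but this order changed with the setting. With an offset of 1 it was above in LDE RES 160 tumours 2 and 3 as well (64.4% against 60.5%, and 60.7% against 57.2%), and with an offset of 32 it was above in none. After median centring it was below in LDE RES 20 tumour 1 (60.9% against 69.4%) and above in LDE RES 160 tumours 1 (75.7% against 72%) and 3 (65.3% against 61.5%). After quantile normalization it was below in LDE RES 20 tumour 1 (74% against 74.5%) and above only in LDE RES 160 tumour 3 (66.2% against 62.9%).

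The 4 h time point asks how early the set responded to NVP-LDE225, and the LDE-4h tumours had no part in choosing it. By 4 h, 9 of the 54 members were lower in LDE-4h than in Veh-4h tumours, none was higher, and 45 did not pass the test. The test was limma on all 21 tumours, with p-values adjusted by Benjamini-Hochberg over 32842 probe sets. Of all probe sets tested, 0.0944% were called lower (31), against 16.7% of members. In 28 members (51.9%) all 3 LDE-4h tumours lay below all 3 Veh-4h tumours, which held for 6.33% of all probe sets tested. The values were below 0 in 41 members and above 0 in 13, and the median was -0.51, beside 0.02 over all probe sets tested. Unadjusted limma p-values were below 0.05 in 23 members, 22 of them lower and 1 higher, and in 2090 of all probe sets tested, 958 of them lower.

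The early fall was shared with the other drug-repressed probe sets. Of these 36, 3 were called lower, and in 27 (75%) every LDE-4h tumour lay below every Veh-4h tumour. The median was -0.82. Over the 30 that stayed low in resistant tumours the median was -0.88. The difference between members and the other drug-repressed probe sets was not tested. The 3 Veh-4h tumours did enter the mean of 8 vehicle tumours that the rule used. Choosing again without them gave 57 probe sets that included all 54 members, and again 9 were called lower at 4 h. The number called rested on each Veh-4h tumour: it was 0 without the first, 1 without the second and 2 without the third, with unadjusted limma p-values below 0.05 and a lower level in 21, 21 and 22 members. Over all probe sets tested these fits called 2, 4 and 4, with 1949, 1731 and 1774 at an unadjusted limma p below 0.05 in either direction. The members called were 4 without the first LDE-4h tumour, 3 without the second and 7 without the third. In these fits 10, 5 and 31 of all probe sets were called in either direction. The median over members stayed between -0.58 and -0.46 whichever of these 6 tumours was left out.

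**Figure D3:**
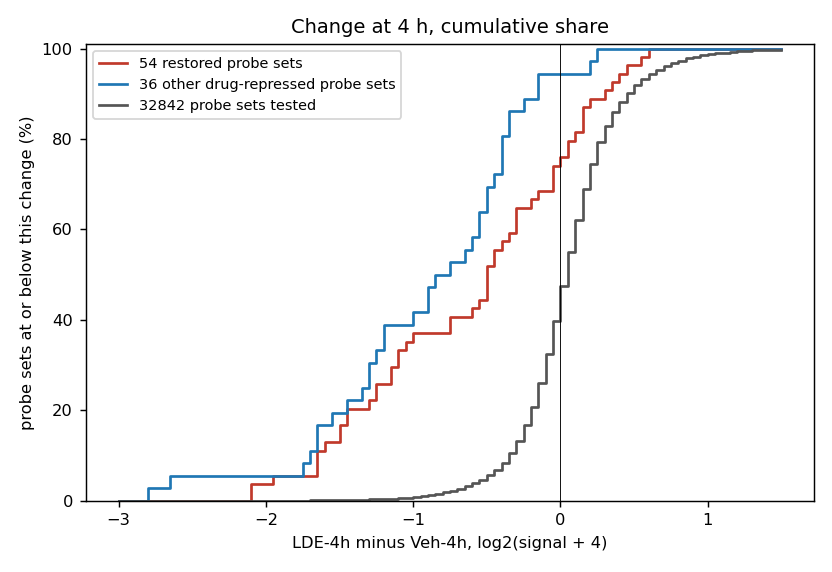
Cumulative share of probe sets (vertical axis, %) at or below each change at 4 h (LDE-4h minus Veh-4h, log2(signal + 4), horizontal axis) for the 54 restored probe sets, the 36 other drug-repressed ones and the 32842 tested. The medians are -0.51, -0.82 and 0.02.

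Probe set 1434877_at had the largest fall at 4 h among members. Its signal was 933.2, 820.8 and 850.1 in Veh-4h tumours and 196.8, 170.5 and 213.0 in LDE-4h tumours, with no overlap. The difference was -2.15 (SE 0.28, adjusted p = 0.0041, limma). By 16 h it stood at 117.8, 50.8 and 48.1, and at 48 h at 93.4 and 94.0, so that most of its fall was present at 4 h. It read 827.9 and 644.3 in LDE RES 20 tumours and 1071.1, 601.5 and 459.5 in LDE RES 160 tumours. The vehicle tumours ran from 538.7 to 933.2 with a median of 824, so 1 resistant tumour lay above that range and 1 below. Without the first Veh-4h tumour its 4 h fall had an adjusted p of 0.051 in limma, and over all alternatives the adjusted p ran from 0.00012 to 0.051.

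Probe set 1422655_at had the next largest fall at 4 h. Its signal was 432.3, 430.6 and 605.1 in Veh-4h tumours and 118.2, 112.8 and 94.0 in LDE-4h tumours, a difference of -2.12 (SE 0.36, adjusted p = 0.020, limma). It was nearly level from 4 h to 16 h, where it stood at 101.4, 69.0 and 83.7, and lower at 48 h, at 32.7 and 39.8. LDE RES 20 tumours stood at 326.8 and 492.1, and LDE RES 160 tumours at 713.7, 225.8 and 147.5. The vehicle tumours ran from 289.7 to 605.1, so only the LDE RES 20 tumours lay inside that range, 1 LDE RES 160 tumour lay above it and 2 below. The 4 h call was lost when any 1 of the 6 tumours at 4 h was left out, with limma adjusted p from 0.067 to 0.16, while the difference stayed between -2.20 and -1.96.

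Several members already stood at 4 h where they were at 16 h, and others stood near the vehicle level. The 4 h difference reached -1 or lower in 20 members, and in 9 of these it was -1.5 or lower, the size of fall that the rule required at 16 h. One member had 170.7, 110.4 and 226.1 in Veh-4h and 43.2, 48.7 and 50.4 in LDE-4h tumours, then 44.2, 46.6 and 33.6 in LDE-16h tumours, about level between the 2 times. The member with the largest positive value at 4 h, 0.58, had 116.1, 116.6 and 116.7 in Veh-4h tumours and 170.1, 169.4 and 190.1 in LDE-4h tumours. By 16 h the same member stood at 54.5, 54.1 and 48.8 on NVP-LDE225 against 189.7, 118.1 and 174.4 on vehicle. Its 4 h value did not pass the test.

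Members were then divided by whether every LDE-4h tumour lay below every Veh-4h tumour, called wholly lower at 4 h. The division was made after the values were seen and so is given with no test. The members not wholly lower include the one with the largest positive value at 4 h, whose LDE-4h tumours all lay above its Veh-4h tumours. In the 28 members wholly lower at 4 h the medians of the LDE-4h tumours were -1.10, -1.10 and -1.07 against the vehicle mean. In the 26 others they were 0.05, 0.04 and -0.11. At 16 h the medians were -1.95 and -1.80. At 48 h the median was -2.69 in the 28 and -1.80 in the 26. The fall was larger at 48 h than at 16 h in 23 of the 28 and in 12 of the 26.

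Members wholly lower at 4 h had the larger spread among resistant tumours. The SD over the 5 resistant tumours had a median of 0.58 in these 28 members and 0.36 in the 26 others. It was 0.5 or more in 17 of the 28 and 6 of the 26. The 3 members with all 5 resistant tumours within 0.5 of vehicle were all among the 26. Across the 54 members, the 4 h change and this SD had a Pearson r of -0.35 and a Spearman rho of -0.60. The 2 measures share no array, but members are not independent of each other. The median of the mean vehicle signal was 341 in the 28 members and 297 in the 26. Over the same 54 members, vehicle level and resistant SD had a Pearson r of -0.00 and a Spearman rho of -0.11. For the SD over vehicle tumours and resistant SD, the Pearson r was 0.25 and the Spearman rho 0.02. Why the spread differed between the 28 and the 26 was not tested.

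**Figure D4:**
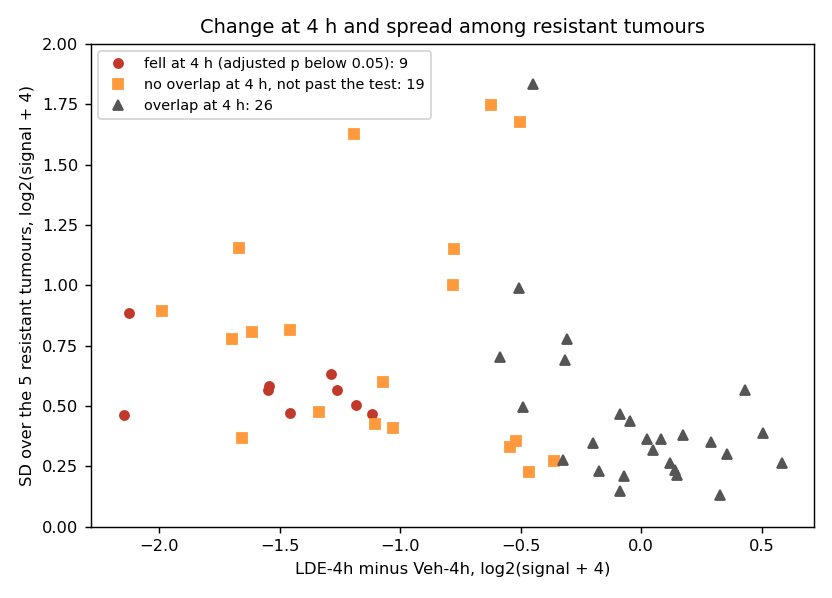
Change at 4 h (LDE-4h minus Veh-4h, log2(signal + 4), horizontal axis) against the SD over the 5 resistant tumours (log2(signal + 4), vertical axis) for the 54 probe sets. Symbols mark members that passed the limma test at 4 h (9), others wholly lower at 4 h (19, labelled no overlap) and the rest (26, labelled overlap). Members to the right, with little change at 4 h, mostly have an SD under 0.5.

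Single tumours differed in which kind of member lay high or low. In the first LDE RES 160 tumour the 28 members wholly lower at 4 h had a median of 0.42 against vehicle and the 26 others -0.06. The third LDE RES 160 tumour had the opposite order, with -0.27 and 0.02. In the second LDE RES 160 tumour the medians were 0.21 and 0.04. In the LDE RES 20 tumours they were -0.12 and -0.38 in the first and -0.62 and -0.53 in the second. So the low position of the second LDE RES 20 tumour was found in both kinds of member.

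A few members were far above vehicle in 1 resistant tumour only. One had a vehicle signal of 198 ± 33.7 (SD, n = 8) and stood at 151.0, 121.6, 149.4, 572.7 and 147.6 in the resistant tumours, where 572.7 was the second LDE RES 160 tumour. Another, at 201 ± 35.9 in vehicle tumours (SD, n = 8), stood at 138.4, 77.5, 150.8, 701.1 and 166.3. The same tumour was high for a member at 231 ± 50.0 in vehicle tumours (SD, n = 8), with 289.1, 61.9, 77.8, 1008.0 and 356.7. In each of these 3 members the LDE-48h tumours were low, at 4.4 and 0.7, at 5.5 and 3.9, and at 54.0 and 36.0. The first LDE RES 160 tumour stood instead at 149.4, 150.8 and 77.8 in them, below the vehicle mean.

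Resistant tumours on 160 and on 20 mg/kg/day, both in 2 doses daily, ask whether the level reached depended on dose. The rule used only the mean of all 5 resistant tumours, so this difference played no part in the choice. One of the 54 members (1.85%) was higher at 160 mg/kg/day, none was lower and 53 did not pass (limma, adjusted over 32842 probe sets), beside 0.116% (38) of all probe sets tested that were called higher. The values were above 0 in 48 members and below 0 in 6, with a median of 0.43, beside -0.05 over all probe sets tested. In 21 members (38.9%) all 3 LDE RES 160 tumours lay above both LDE RES 20 tumours, which held for 9.73% of all probe sets tested. Unadjusted limma p-values were below 0.05 in 16 members, all higher at 160 mg/kg/day, and in 4477 of all probe sets tested, 1583 of them higher and 2894 lower. Among the 36 other drug-repressed probe sets none was called, 2 had an unadjusted limma p below 0.05 and the median was 0.26. In 2 of them every LDE RES 160 tumour lay above both LDE RES 20 tumours.

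The size of the dose difference rested on the second LDE RES 20 tumour. The median over members was 0.20 without it and 0.61 without the first. Both fits left 1 LDE RES 20 tumour, so only the median over members is given for them here. Leaving out LDE RES 160 tumour 1, 2 or 3 gave 4, 0 and 2 called members, with 15 at an unadjusted limma p below 0.05 where none was called. Members were counted here only where higher at 160 mg/kg/day. Over all probe sets tested, these fits called 1360, 258 and 265 in either direction. The fit without LDE RES 160 tumour 2 had 4442 of all at an unadjusted limma p below 0.05, in either direction. The fit on all tumours called 254, of which 38 were higher and 216 lower. The actin 3′ to 5′ ratio was 1.40 in both LDE RES 20 tumours and 1.27 to 1.34 in the LDE RES 160 tumours. Its part in the dose difference was not tested. The same ratio was 1.60 to 1.87 in Veh-4h and 1.53 to 1.69 in LDE-4h tumours, overlapping at 4 h.

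Probe set 1450646_at was the member that passed the dose test, and it is named for that reason, after its values were seen. It stood at 296.2 and 235.6 in LDE RES 20 tumours and at 415.3, 487.0 and 497.5 in LDE RES 160 tumours. The groups did not overlap and the difference was 0.81 (SE 0.18, adjusted p = 0.038, limma). Vehicle tumours had 476.7, 547.2 and 562.2 at 4 h, 607.3, 575.4 and 463.3 at 16 h and 284.1 and 361.5 at 48 h, so the LDE RES 20 tumours lay near or below the Veh-48h tumours. LDE-16h tumours stood at 178.3, 152.3 and 152.1 and LDE-48h tumours at 79.2 and 111.8. At 4 h the LDE-4h tumours stood at 547.2, 513.1 and 435.9, a difference of -0.09 that did not pass the limma test. The dose call was lost in limma without the second LDE RES 20 tumour (0.64, adjusted p = 0.60) and without LDE RES 160 tumour 2 or 3 (0.77 and 0.76, both with adjusted p = 0.077). With all tumours kept, it was also lost in limma after median centring (adjusted p = 0.072), without the trend (adjusted p = 0.083), with array weights (adjusted p = 0.15), with only the groups compared (adjusted p = 0.79) and with the replicate block (adjusted p = 0.051).

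Probe set 1449123_at had the largest dose difference, and 1 tumour carried much of it. It stood at 142.0 and 55.5 in LDE RES 20 tumours and at 141.7, 1546.1 and 244.5 in LDE RES 160 tumours, so the groups overlapped. The difference was 2.04 (SE 0.62, adjusted p = 0.14, limma) and 1.03 without the second LDE RES 160 tumour. It reached an adjusted p of 0.012 in limma, with a difference of 2.74, when the first LDE RES 160 tumour was left out. Vehicle tumours ran from 152.3 to 244.6 with a median of 183. LDE-4h tumours stood at 119.2, 120.9 and 138.9, LDE-16h tumours at 38.9, 16.9 and 45.0 and LDE-48h tumours at 14.1 and 9.6, lower at each later time. Its 4 h change of -0.62 did not pass the limma test.

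**Figure D5:**
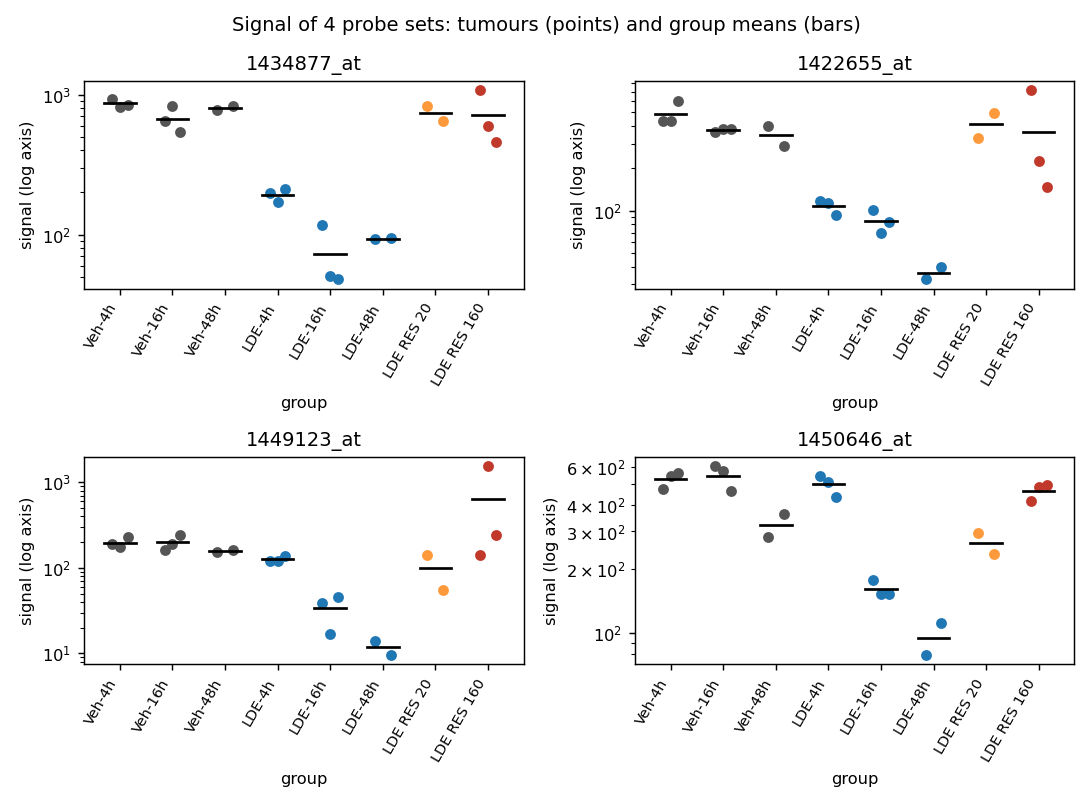
Signal (log axis) of 4 probe sets in 8 groups, with a point for each tumour and a bar at the group mean. 1434877_at and 1422655_at are already low at 4 h on NVP-LDE225, 1450646_at is higher in LDE RES 160 than in LDE RES 20 tumours, and 1449123_at has 1 LDE RES 160 tumour at 1546.1.

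The dose difference and the early fall were little related across members. Over the 54 members, the 4 h change and the dose difference had a Pearson r of 0.05 and a Spearman rho of 0.01, measured in separate arrays. The median dose difference was 0.46 in the 28 members wholly lower at 4 h and 0.37 in the 26 others. All 3 LDE RES 160 tumours lay above both LDE RES 20 tumours in 8 of the 28 and in 13 of the 26.

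The ending of a probe set ID states, in the array maker's naming, whether its probes match several transcripts of one gene (_a_at), transcripts of several genes (_s_at), or unrelated sequences in part (_x_at). Of the members 28 ended in plain _at (51.9%), 14 in _a_at (25.9%), 6 in _s_at (11.1%) and 6 in _x_at (11.1%). Among the 13794 bright probe sets the shares were 67.2%, 17.4%, 8.23% and 7.15%. The values of the 12 members ending in _s_at or _x_at may hold signal from more than 1 gene. Of the 26 members not wholly lower at 4 h, 11 ended in _a_at (42.3%), against 3 of the 28 others (10.7%). Some members may measure the same transcript: of 1431 pairs of members, 2 had deviations from the group means that correlated at 0.9 or more, while the median pair had 0.10. Both members of 1 of these pairs were among the 9 called lower at 4 h. Whether such pairs share a gene was not tested.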

How the data were processed

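RNA of 21 tumours was measured on 1-colour Affymetrix mouse arrays. Each file held the deposited linear intensity of 45101 probe sets, computed by the authors with MAS5, per the submitters' processing notes (version not given in the sources used here). The mean of an array ran from 221.4 to 256.4. Counting depth has no meaning here, and the number of arrays limits precision.

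Intensities were put on the log2(signal + 4) scale, which understates changes of low signals. After leaving out 64 control probe sets and those not at or above the 40th percentile of an array on at least 2 arrays, 32842 were tested. limma 3.58.1 (R 4.3.3) fitted 8 groups with a mean-variance trend, two-sided, and the Benjamini-Hochberg threshold was 0.05. The fit was tested on simulated data. Each array is a different mouse, and the labels tie no tumours together beyond a mouse number. At 4 h the deviations of the 3 pairs with the same number had low positive correlations (0.121, 0.04 and 0.145). Each was the highest for its LDE-4h tumour. The labels state no pairing, so numbers were not taken as pairs in the main fit, and a replicate block was run as an alternative. No 2 arrays were identical (highest correlation 0.9794).

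The members, gene lists and tests were chosen with earlier results of these data known. Probe sets named are the 2 members with the largest fall at 4 h, the member with the largest dose difference and the only one that passed the dose test. As 0 of the probe set IDs were found in the reference tables, gene lists, cell type markers, promoters and DNA copy number of members (6 DNA arrays) were not analysed here. Alternatives covered the offset, scaling, filter, fit, replicate block and each tumour left out.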

Additional observations from a re-analysis of the deposited data

Results flagged for a closer look

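The level of 1450646_at relative to vehicle differed between resistant tumours on the 2 doses. The tumours on 160 mg/kg/day were higher than those on 20 mg/kg/day by 0.81 on the log2(signal + 4) scale, in 3 of 3 against 2 of 2 tumours (adjusted p = 0.038, limma). Over its alternatives the difference ran from 0.64 to 0.97 and the limma adjusted p from 0.015 to 0.79. The 2 resistant groups share their vehicle tumours, so this is the dose difference given above. Over all 54 members, 4 had a single tumour far from the others among the 8 vehicle tumours and 3 among the 5 resistant tumours. This was judged by Dixon's gap over range, where chance alone gives about 1 in 20. The same counts are not given over other probe sets, so whether they are particular to members cannot be read from them.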

How the results depend on the processing

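The member medians at 4 h and at dose and the 4 named probe sets kept their direction under the alternatives run; other members were not followed singly. The rule gave 25 probe sets with an offset of 32 (21 of the 54 among them), 275 with falls of 1 or more, 77 after quantile normalization (53 shared), 80 after median centring (37 shared), and 49 to 64 with 1 tumour left out. Median centring moved the median of all tested probe sets at 48 h from 0.09 to -0.30. At 4 h, limma called 9 members lower in the main fit (34 of all probe sets, in either direction). It called 5 (17) without the trend, 18 (93) with array weights and 21 (118) with only the groups compared. With 1 tumour left out it called 0 to 7 (2 to 31). For dose, limma called 1 member higher in the main fit. It called 0 after median centring, without the trend, with array weights, with only the groups compared and with the replicate block. These 5 fits had 22, 14, 17, 11 and 20 members higher at an unadjusted limma p below 0.05. Over all probe sets tested 3808, 4250, 3039, 2037 and 4561 were below it, in either direction. With 1 LDE RES 160 tumour left out, 0 to 4 members were called. Over all probe sets, in either direction, the dose test called 254 in the main fit. It called 103, 125, 83 and 0 (2037 unadjusted) under the first 4 of these settings, and 258 to 1360 with 1 LDE RES 160 tumour left out. Where 1 tumour stayed in a group, it was assumed to vary like the others. The replicate block gave 6 members (26 of all) at 4 h and 232 of all probe sets at dose. Each LDE-4h tumour correlated best with its own number, a hint from the data and not the design. Left out of the choice, LDE RES 160 tumour 2 had a median of -0.42 after median centring and -0.04 after quantile normalization against 0.05, and LDE RES 160 tumour 1 had -0.14 after median centring and -0.05 with an offset of 32 against 0.05. These left-out tumour settings and the count of 57 members were added after the data were seen. The cause of these changes was not tested. The DNA comparison and the fixed gene lists were not run.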
